A study of Drosophila melanogaster with 42 samples.

Results

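Drosophila melanogaster carries its 8 Hox genes in a pair of clusters on chromosome arm 3R, the Antennapedia complex (lab, pb, Dfd, Scr and Antp) and the bithorax complex (Ubx, abd-A and Abd-B). The chromatin accessibility of these genes was read from the authors' tables of 20935 regions of 2114 bp, each compared between mutant and wild-type embryos. Coordinates are those of Release 6 of the genome (dm6). A region was taken as a Hox region when its midpoint lay inside 1 of the 8 genes or within 10 kb of it, and a region near a pair of them went to the nearer. This gave 89 of the 20935 regions, 54 in the Antennapedia complex and 35 in the bithorax complex, and peaks of each library were assigned to the genes in the same way by their summits.

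The series is an ATAC-seq time course, in which a transposase cuts and tags open DNA, on 42 libraries from whole embryos in 14 groups of 3. Each library was made from 400 hand-sorted embryos at 1-1.5 h after egg laying, 100 at 1.5-2 h, and 40 at 2-2.5 h and at 2.5-3 h. The mutant groups are zld- embryos in all 4 windows, gd7 embryos in all 4 windows and cic6 embryos in the last 2 windows, and the wild type is Oregon-R (OreR) in all 4 windows. Zelda, the product of zld, is the maternally supplied pioneer factor that opens chromatin before the main activation of the embryo's own genes, and the names of the zld- files refer to RNAi and depletion, so some Zelda may remain. Embryos of gd7 mothers lack a protease (Gastrulation defective) needed to form the gradient of the transcription factor Dorsal along the dorsoventral axis. Capicua, the product of cic, is a transcriptional repressor whose activity is relieved by receptor tyrosine kinase signalling at the poles of the embryo. Accessibility does not show whether the targeted proteins were lost, so the genotypes rest on the labels. In whole embryos, fewer cells with an open region and less opening per cell cannot be told apart.

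Hox genes encode homeodomain transcription factors that give each segment along the anteroposterior axis its identity, and their order on the chromosome follows the order of the segments they specify. In the early embryo they are switched on by gap and pair-rule factors acting through enhancers that are spread over large introns and intergenic DNA. Their expression domains are later held by Polycomb group proteins, which keep them silent, and trithorax group proteins, which keep them active.

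Most Hox regions lay away from annotated gene ends. Of the 89 regions, 61 had their midpoint inside the gene and 28 outside it, and the midpoint of 3 lay within 500 bp of an annotated gene end. Antp, which covers 102976 bp, held 25 regions, and Ubx, which covers 77804 bp, held 16. Abd-B had 10 regions, pb, Scr and abd-A had 9 each, lab had 6 and Dfd had 5. The tables gave an enhancer name to 51 of the 89 regions (57.3%), against 2336 of all 20935 (11.2%), and 33 of these names were fragments of the Vienna Tiles collection of tested enhancers, written VT. Accessibility was above the middle of the genome, since the median Hox region stood at the 76.2 percentile of mean normalized count of all regions in the zld- table, 77.1 in the gd7 table and 79.2 in the cic6 table. The midpoints of 19 Hox regions also lay in another protein-coding gene, 13 of them in CG46458, which overlaps Antp, so those regions are tied to a Hox gene by position only.

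Libraries differed in how many peaks were called. The lists held 6831 to 58137 peaks, and the zld- library of replicate 3 at 1-1.5 h, with 6831, stood apart from the next shortest list of 21324. Depth per library is not given with the lists, and the tables hold no counts per library, so the zld- comparison at 1-1.5 h could not be recomputed without this library. The comparisons of the 3 mutants share the OreR libraries, so values of different mutants at a region are not independent.

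In the authors' deposited table, calls at Hox regions were mostly downward in zld-, and mostly upward in gd7 and cic6. The share called higher in gd7 and cic6 was above the background before but not after a trend with mean count was removed. In cic6 more regions were then lower than higher. In zld- embryos, 33 of the 89 Hox regions were lower than in OreR in at least 1 window and 12 were higher, where the background over all regions was 27.5% lower and 21.4% higher (adjusted p under 0.05 in the authors' deposited table). In gd7 embryos, the authors' deposited table called 4 Hox regions lower and 15 higher in at least 1 window (background 13.2% and 12.6%). For cic6, the authors' deposited table called 12 lower and 45 higher (background 25.7% and 28.4%). As shares of the 89, 37.1% were lower in zld-, 16.9% were higher in gd7 and 50.6% were higher in cic6. In all 3 tables the fold change varied with how high a region's mean normalized count was, and the calls were counted again with that trend subtracted. In zld-, 33 Hox regions were then lower (37.1%, background 26.1%) and 12 higher (13.5%, background 19.0%), and 27 and 10 of these were the same regions as before. In gd7, 5 were then lower (5.62%, background 11%) and 8 higher (8.99%, background 9.26%), with 4 and 6 the same as before. In cic6, 12 were then lower (13.5%, background 14.3%) and 8 higher (8.99%, background 17.1%), with 10 and 8 the same as before. Below, lower or higher means an adjusted p under 0.05 in the authors' deposited table in a given window, unless the trend is said to be subtracted, and every fold change is mutant over OreR on the log2 scale with its standard error (SE) from the same table.

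**Figure D1:**
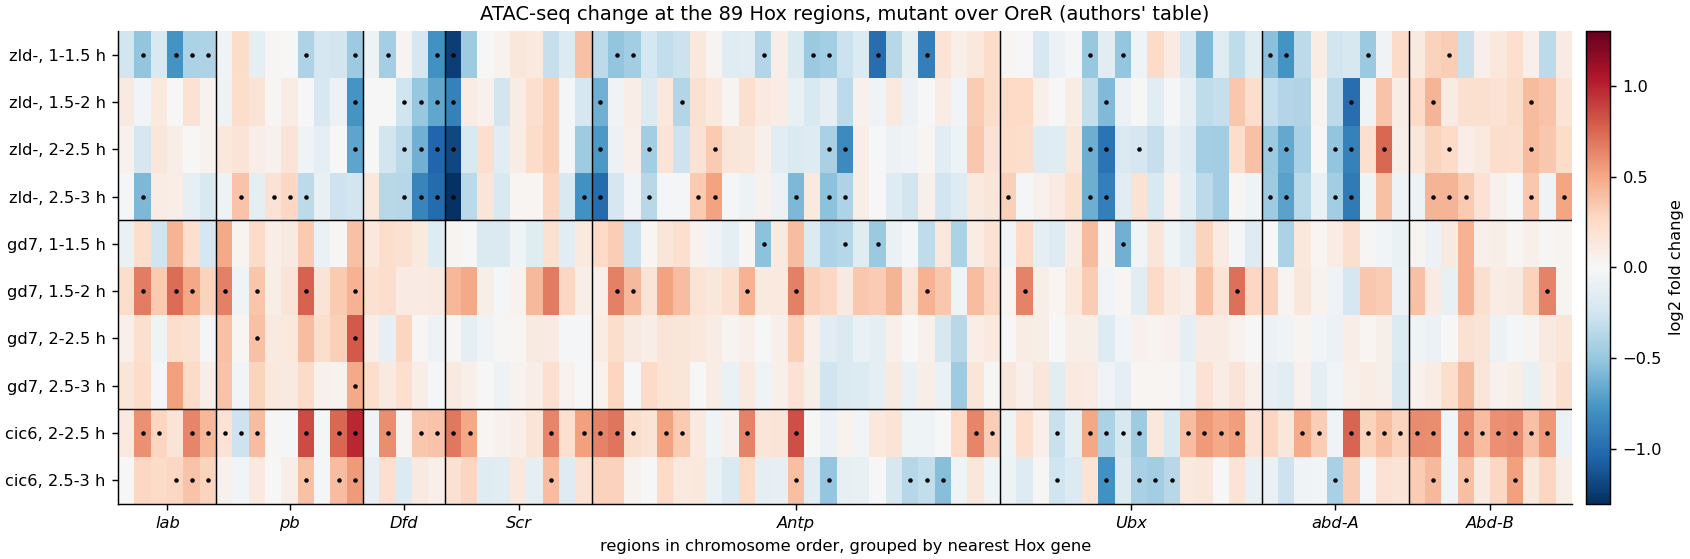
The log2 fold change of mutant over OreR in the authors' deposited table for the 89 Hox regions (columns, in chromosome order and grouped by nearest gene) in the 10 comparisons (rows). Blue is lower and red is higher in the mutant, and a black point marks an adjusted p under 0.05. The rows for zld- hold 2 columns called lower in every window, at the border of Dfd and Scr, and the row for cic6 at 2-2.5 h holds 44 regions called higher.

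In zld- embryos most of the calls at lab lay in the first window, while those at the border of Dfd and Scr held through all 4 windows, and Antp, Ubx and abd-A had regions lower in each window. At 1-1.5 h, 21 Hox regions were lower and 1 was higher in the authors' deposited table (background 15.6% and 10.4%). At 1.5-2 h it was 9 lower and 2 higher in the authors' deposited table (background 7.49% and 4.66%). At 2-2.5 h the authors' deposited table had 16 lower and 4 higher (background 13.4% and 7.82%), and at 2.5-3 h 18 lower and 11 higher (background 17.1% and 14.0%). The Hox share called lower was 23.6% at 1-1.5 h, above the background of that window, and 20.2% at 2.5-3 h, near it. When the trend of fold change with mean normalized count over all regions was subtracted, the counts at 1-1.5 h were 13 lower and 3 higher (14.6% and 3.37%, background 13.2% and 8.97%), so the share called lower was then near the background of that window too. Those at 1.5-2 h were 16 lower and 0 higher (18.0% lower, background 9.03% and 2.25%). With fold changes centred on the median of all regions, they were 12 lower and 0 higher at 1.5-2 h (background 8.62% and 2.93%).

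**Figure D2:**
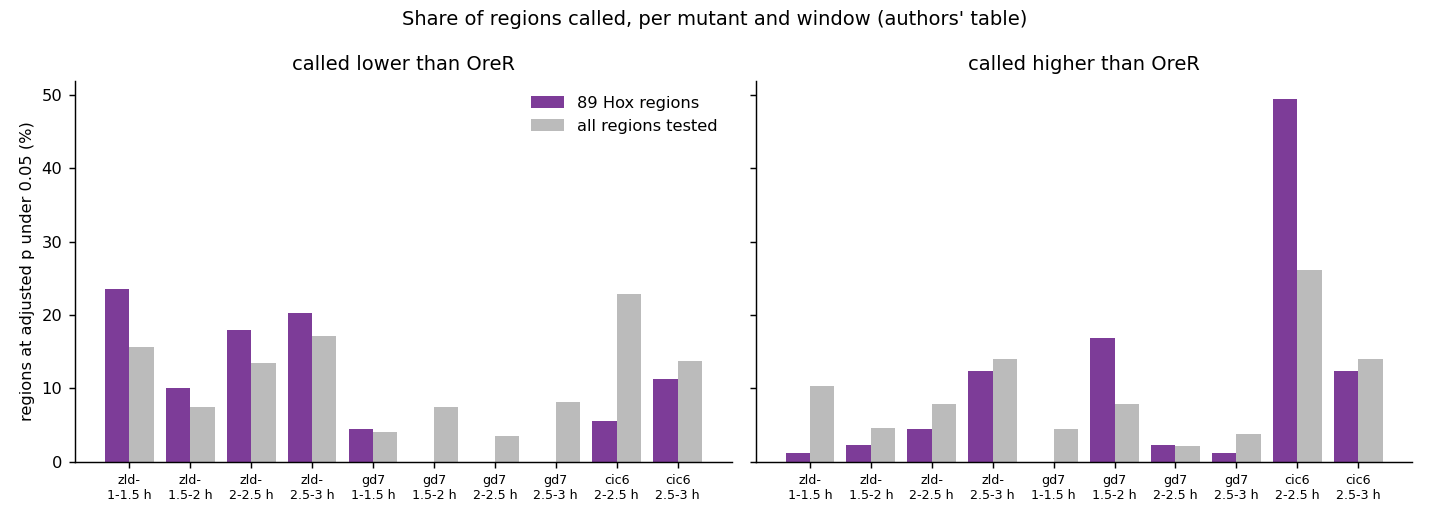
Share of regions called lower (left panel) or higher (right panel) than OreR in the authors' deposited table, as percent of the 89 Hox regions (purple) and of all regions tested (grey), for each mutant and window. At 2-2.5 h in cic6 the Hox share called higher is 49.4%, against 26.2% of all regions.

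The most anterior gene, lab (chr3R:6661427-6678590), which acts in the head and later in the midgut, had most of its zld- calls in the first window. That window holds the shortest peak list. Of the 6 lab regions, 4 were lower in zld- at 1-1.5 h in the authors' deposited table (background 15.6%), and 0 were higher in any window. The largest of these changes was at the fragment VT37471.1 (chr3R:6670891-6673004, inside the gene), with a log2 fold change of -0.78 (SE 0.09, adjusted p 6.36e-15) at 1-1.5 h in the authors' deposited table and values of at most 0.08 in size afterwards. The enhancer region lab_-2.6 (chr3R:6677531-6679644), whose midpoint is 3 bp from an annotated end of lab, had -0.41 (SE 0.15, adjusted p 0.026) in the same window in the authors' deposited table. VT37467.1 (chr3R:6662771-6664884) was the only lab region lower in more than 1 window, at 1-1.5 h (-0.51, SE 0.15) and at 2.5-3 h (-0.58, SE 0.14) in the authors' deposited table. With the trend subtracted, only the calls of VT37471.1 at 1-1.5 h and VT37467.1 at 2.5-3 h were kept. At 1-1.5 h VT37467.1 then had -0.37 and lab_-2.6 had -0.11, with no call.

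The lab regions called in gd7 and cic6 were all called higher. In gd7, 3 of 6 were higher, all at 1.5-2 h (background 7.86% in that window), in the authors' deposited table. In cic6 5 of 6 were higher in at least 1 window of the authors' deposited table (background 28.4%). At 2-2.5 h in cic6, lab_-2.6 had 0.64 (SE 0.12) and VT37467.1 had 0.59 (SE 0.11) in the authors' deposited table. Subtracting the trend left 0 lab regions higher in gd7 and 1 in cic6 (background 9.26% and 17.1%), VT37471.1 at 2.5-3 h (0.24).

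At pb (chr3R:6707800-6742063), which specifies the adult mouthparts, the region with the largest mean change in every mutant, among regions called in at least 2 windows, lay outside pb. It is the region chr3R:6742269-6744382, 1262 bp outside pb, with its midpoint in zen2, a homeobox gene of the complex that is no Hox gene. In zld- it had -0.47 (SE 0.13), -0.77 (SE 0.11), -0.68 (SE 0.11) and -0.24 (SE 0.11) from the first window to the last in the authors' deposited table, lower in the first 3. It was higher in gd7 in the last 3 windows of the authors' deposited table, at 0.45, 0.79 and 0.49 (SE 0.15 each), after 0.38 (SE 0.16) at 1-1.5 h. In cic6 it was higher in both windows, with 0.98 (SE 0.11) and 0.56 (SE 0.11) in the authors' deposited table. Its zld- and cic6 calls were all kept with the trend subtracted, and of its gd7 calls only that at 2-2.5 h (0.73).

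Inside pb the mutants differed in sign. The region of the fragment VT37496.1 (chr3R:6723792-6725905) is the only Hox region to which the gd7 and cic6 tables give an expression pattern, dorsal. The pattern is listed under another fragment name, VT37495_Kvon, and not under VT37496.1. In gd7 the region had log2 fold changes of 0.34, 0.76, 0.40 and 0.25 (SE 0.17 each) through the windows of the authors' deposited table. It was called higher at 1.5-2 h. It was also higher in cic6, at 0.85 and 0.38 (SE 0.10 each), and lower in zld- at 1-1.5 h and 2.5-3 h (-0.40 and -0.34, SE 0.13 each), in the authors' deposited table. The region of the named enhancers pb_0.8 and pbZR (chr3R:6734881-6736994) was called in cic6 alone, at 0.75 and 0.40 (SE 0.09 each) in the authors' deposited table. Of the 9 pb regions, 2 were lower and 3 higher in zld- in at least 1 window, 0 and 4 in gd7, and 1 and 5 in cic6, in the authors' deposited table. The background was 27.5% and 21.4% in zld-, 13.2% and 12.6% in gd7, and 25.7% and 28.4% in cic6. The 3 higher in zld- were all called at 2.5-3 h, between 0.19 and 0.37, in the authors' deposited table. Of the 5 cic6 gains at pb, 4 were kept with the trend subtracted (background 17.1%), the highest number of any Hox gene.

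The stretch from Dfd to Scr held the strongest and most lasting losses in zld- embryos. Dfd (chr3R:6791836-6802428) specifies the mandibular and maxillary segments of the head, and Scr (chr3R:6823120-6849981) the labial and first thoracic segments. Across all 89 Hox regions, 2 were lower in zld- in every window of the authors' deposited table, and they are neighbours between the pair of genes. Scr_6.8XX (chr3R:6816199-6818312), a named Scr enhancer 5865 bp outside the gene, had -1.23 (SE 0.22), -0.88 (SE 0.21), -1.18 (SE 0.21) and -1.29 (SE 0.21) through the windows of the authors' deposited table. VT37540.1 (chr3R:6810739-6812852), 9367 bp from Dfd and over a long non-coding RNA gene, had -0.79, -0.67, -1.03 and -1.004 (SE 0.19 each) in the authors' deposited table. For comparison over all regions, 902 of 20935 (4.31%) were lower in every zld- window in the authors' deposited table, beside 2 of 89 Hox regions (2.25%). After subtraction of the trend, Scr_6.8XX was still lower in all 4 zld- windows, and VT37540.1 in the last 3. In gd7 neither region was called in any window, and in cic6 both were higher at 2-2.5 h only, Scr_6.8XX at 0.68 (SE 0.17) and VT37540.1 at 0.37 (SE 0.13), in the authors' deposited table. The cic6 values were 0.075 and -0.24 after subtraction of the trend, with no call.

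Peaks called in single libraries at Scr_6.8XX were fewer in zld-. The 3 zld- libraries of 1-1.5 h had 0, 1 and 0 peaks over the region, and those of 1.5-2 h had 1, 1 and 0, while each zld- library of the last 2 windows had 1. In OreR each library of 1-1.5 h had 1 peak and each of the 9 later libraries had 2. From 1.5-2 h on, no zld- library reached the count of any OreR library in its window. The gd7 libraries of the last 2 windows and all 6 cic6 libraries had 2 peaks each, as OreR had in those windows.

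Toward Dfd the zld- losses were smaller, and inside Scr no region was called in zld- in the authors' deposited table. VT37538.1 (chr3R:6803905-6806018), 2533 bp outside Dfd, had -0.22 (SE 0.14), -0.49 (SE 0.13), -0.62 (SE 0.13) and -0.86 (SE 0.12) through the zld- windows of the authors' deposited table. VT37535.1 (chr3R:6800759-6802872), 613 bp from an end of Dfd, had 0.03 (SE 0.10), -0.26, -0.35 and -0.37 (SE 0.09 each) there in the authors' deposited table. Both were lower from 1.5-2 h on. On the Scr side, the neighbouring named enhancer Scr_6.7BB (chr3R:6820407-6822520) was not called in zld- (-0.46, 0.09, -0.19 and -0.35, SE 0.26 each, in the authors' deposited table), although by mean normalized count it was the most accessible Scr region. The named enhancers Scr_5.4BB (chr3R:6833680-6835793) and Scr_BSR (chr3R:6840118-6842231) inside Scr, and Dfd_EAE-E (chr3R:6784540-6786653) on the other side of Dfd, had 0 calls in the 10 comparisons of the authors' deposited table. By the authors' deposited table, 4 of 5 Dfd and 2 of 9 Scr regions were lower in zld- in at least 1 window (background 27.5%). Of these 14, 0 were higher (background 21.4%), and gd7 had 0 calls at both genes. In cic6, 3 Dfd and 4 Scr regions were higher and 0 lower there (background 28.4% and 25.7%). The Scr region nearest an end of the gene (VT37560.1, chr3R:6848398-6850511) was higher in both cic6 windows, at 0.63 and 0.40. With the trend subtracted, 3 Scr regions were lower and 2 higher in zld- (background 26.1% and 19.0%). The 2 include this region at 2.5-3 h (0.46). In cic6, 0 regions of both genes were then higher and 1 Dfd region was lower (background 17.1% and 14.3%).

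**Figure D3:**
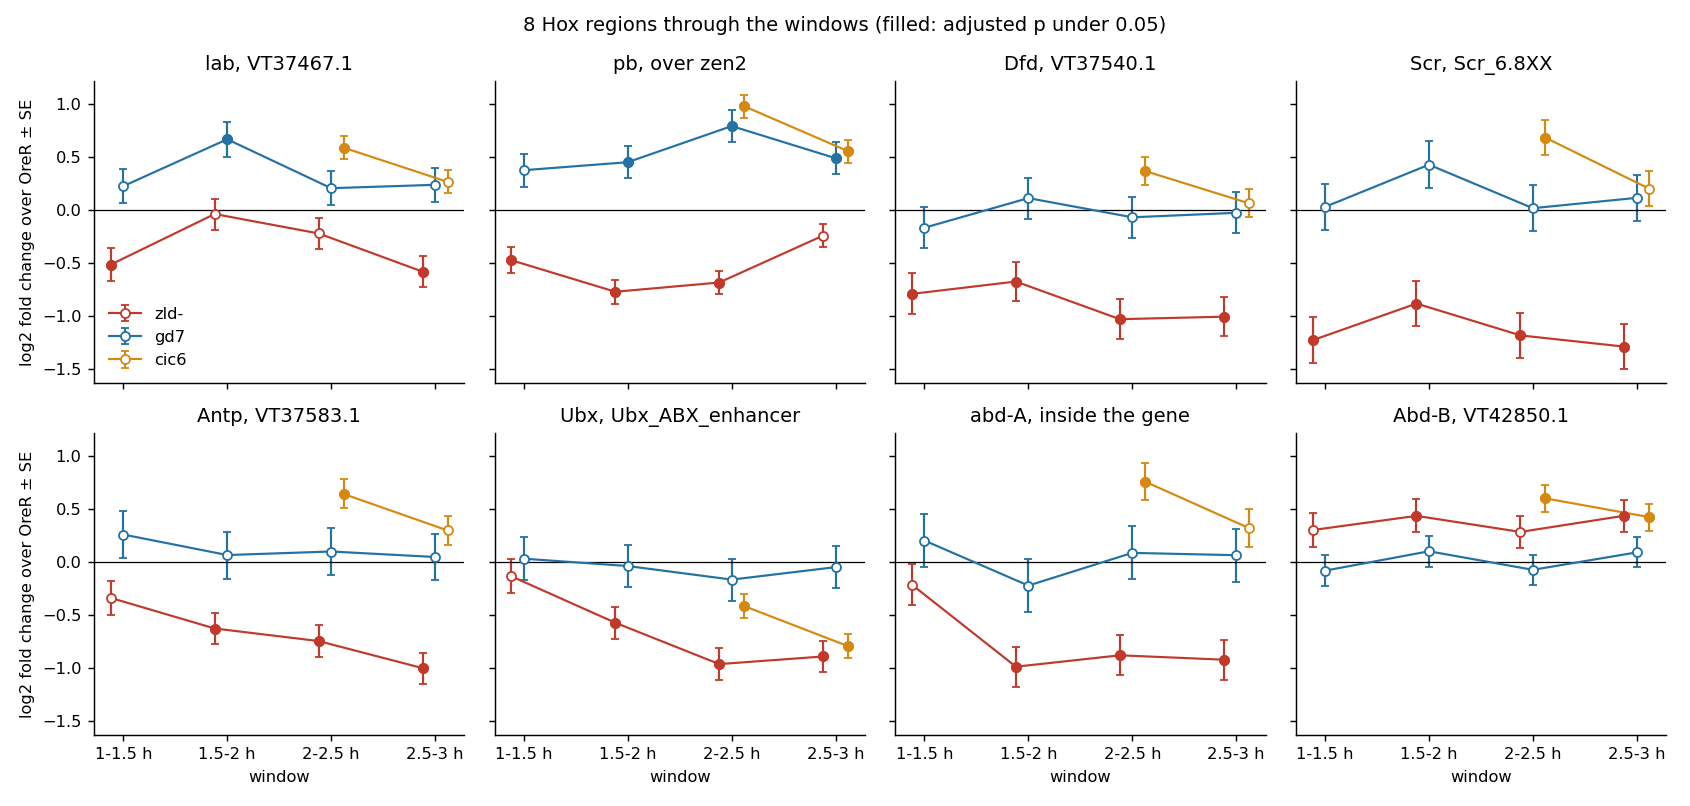
Log2 fold change over OreR with its SE (bars) in the authors' deposited table at the region of each of the 8 genes with the largest mean change in zld- among regions called in at least 2 zld- windows. Filled points have an adjusted p under 0.05. In zld- (red) the regions of 7 genes lie below 0 in every window and that of Abd-B lies above 0; in cic6 (orange) the Ubx region alone lies below 0, at -0.41 and -0.79.

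Antp (chr3R:6896253-6999228), which specifies the thorax and in particular the second thoracic segment, had 12 of its 25 regions lower in zld- in at least 1 window and 2 higher in the authors' deposited table (background 27.5% and 21.4%). Some were called lower in the first window only, which holds the shortest peak list, and others in later windows. The unnamed regions chr3R:6977375-6979488 and chr3R:6990974-6993087, both inside the gene, were lower at 1-1.5 h only, at -0.99 (SE 0.15) and -0.89 (SE 0.17), with later values between -0.06 and 0.07, in the authors' deposited table. VT37583.1 (chr3R:6887885-6889998), 7312 bp outside Antp on the side of Scr, was lower in the last 3 windows of the authors' deposited table. It had -0.34 (SE 0.16) and then -0.62, -0.74 and -0.999 (SE 0.15 each). Its effect at 2.5-3 h differed from that at 1-1.5 h but not from that at 1.5-2 h (Wald test, below). An unnamed region inside the gene (chr3R:6964001-6966114) was lowest at 2-2.5 h, at -0.83 (SE 0.14), in the authors' deposited table. A region in the part of Antp that CG46458 overlaps (chr3R:6924388-6926501) was higher in the last 2 windows, at 0.34 and 0.53 (SE 0.08 each), in the authors' deposited table. All of these calls were kept with the trend subtracted.

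In cic6, 4 regions in the interior of Antp were lower at 2.5-3 h (background 13.7%) and not at 2-2.5 h. They were chr3R:6993685-6995798 at -0.56 (SE 0.15), chr3R:6955823-6957936 at -0.50 (SE 0.10), chr3R:6987286-6989399 at -0.37 (SE 0.08) and chr3R:6990974-6993087 at -0.32 (SE 0.08) in the authors' deposited table. With the trend subtracted all 4 were still lower at 2.5-3 h, and 3 of them were lower at 2-2.5 h as well. Of the 9 Antp regions higher in cic6 (background 28.4%), 1 was still higher after that step (background 17.1%), Antp_4 at 2-2.5 h (0.41).

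Of the 4 regions with a named Antp enhancer, 3 were called in at least 1 comparison. Antp_4 (chr3R:6948342-6950455) was lower in zld- at 2.5-3 h (-0.58, SE 0.18), higher in gd7 at 1.5-2 h (0.65, SE 0.23) and higher in cic6 in both windows (0.83 and 0.39, SE 0.14 each) in the authors' deposited table. The first of 2 regions named Antp_2d9 (chr3R:6931871-6933984) was higher in gd7 at 1.5-2 h (0.45, SE 0.16) and in cic6 at 2-2.5 h (0.65, SE 0.13) in the authors' deposited table. The second of them (chr3R:6934690-6936803) was lower at 1-1.5 h in gd7 (-0.53, SE 0.12) and in zld- (-0.38, SE 0.15) in the authors' deposited table. Of these calls, subtracting the trend kept those of Antp_4 in zld- and in cic6 at 2-2.5 h and that of the second Antp_2d9 region in gd7 (-0.58). It ended the gd7 calls of Antp_4 (0.31) and of the first Antp_2d9 region (0.19), the cic6 calls of Antp_4 at 2.5-3 h (0.24) and of the first Antp_2d9 region (0.31), and the zld- call of the second (-0.21). Antp_10d9 (chr3R:6940701-6942814) was called in 0 of the 10 comparisons. The region nearest an annotated end of Antp (chr3R:6999076-7001189), the most accessible of the 89 by mean normalized count, was called only in cic6 at 2-2.5 h, at 0.64 (SE 0.17), in the authors' deposited table, and had 0.022 with no call once the trend was subtracted.

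Ubx (chr3R:16656623-16734426) sets the identity of the third thoracic and first abdominal segments and suppresses the wing programme in the haltere. The enhancer ABX (chr3R:16683940-16686053, inside the gene) is named after anterobithorax, mutations that transform the front of the third thoracic segment. It was lower in zld- and in cic6: in zld- it had -0.13 (SE 0.16), -0.57, -0.96 and -0.89 (SE 0.15 each), and in cic6 -0.41 (SE 0.11) and -0.79 (SE 0.12), in the authors' deposited table. In gd7 its values lay between -0.16 and 0.03 (SE 0.20 each), with no call, in the authors' deposited table.

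In single libraries, a peak over ABX was called in few early zld- libraries. The zld- libraries had 0, 1 and 0 peaks over it at 1-1.5 h and 0, 2 and 0 at 1.5-2 h, then 3, 3 and 1 at 2-2.5 h and 3, 3 and 2 at 2.5-3 h. The OreR libraries had 0, 1 and 2, then 3, 2 and 1, then 2, 3 and 2, and last 2, 2 and 3. A peak was thus absent from 2 of 3 zld- libraries and from 0 of 3 OreR libraries at 1.5-2 h. All 6 cic6 libraries had 1 to 3 peaks there, as had the 6 OreR libraries of the same windows.

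Beside ABX, VT42734.1 (chr3R:16677075-16679188) inside Ubx was lower in zld- at 1-1.5 h, 2-2.5 h and 2.5-3 h, at -0.50 (SE 0.18), -0.63 (SE 0.17) and -0.63 (SE 0.17) in the authors' deposited table. In cic6, 6 of the 16 Ubx regions were lower and 5 were higher in at least 1 window of the authors' deposited table (background 25.7% and 28.4%). The 6 were the largest number lower at any of the 8 genes. After ABX, VT42743.1 (chr3R:16693595-16695708) was lower in both cic6 windows, at -0.46 and -0.42 (SE 0.09 each), and so was an unnamed region (chr3R:16671304-16673417), at -0.29 and -0.26 (SE 0.08 each), in the authors' deposited table. The named enhancer Ubx_BRE (chr3R:16700893-16703006) was lower in cic6 at 2.5-3 h (-0.45, SE 0.16) and VT42741.1 (chr3R:16690514-16692627) at 2-2.5 h (-0.21, SE 0.09) in the authors' deposited table. VT42741.1 was also lower at 1-1.5 h in zld- (-0.50, SE 0.11) and in gd7 (-0.63, SE 0.12) in the authors' deposited table. The region of the basal promoter (chr3R:16733495-16735608), 125 bp from an annotated end, was higher in gd7 at 1.5-2 h (0.72, SE 0.19) and in cic6 at 2-2.5 h (0.54, SE 0.14), with no call in zld-, in the authors' deposited table. After that trend was subtracted, 5 of the 6 Ubx regions lower in cic6 were still lower and 0 of the 5 higher ones were still higher (background 14.3% and 17.1%). The unnamed region was then lower at 2.5-3 h only, VT42741.1 (-0.16) was not called in cic6, and VT42734.1 was not called in zld- at 1-1.5 h (-0.41).

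At abd-A (chr3R:16807214-16830049), which specifies abdominal segments, 5 of 9 regions were lower in zld- in at least 1 window and 1 was higher in the authors' deposited table (background 27.5% and 21.4%). The largest change was at an unnamed region inside the gene (chr3R:16825309-16827422), with -0.21 (SE 0.19) at 1-1.5 h and then -0.99, -0.88 and -0.92 (SE 0.19 each) in the authors' deposited table. It was higher in cic6 at 2-2.5 h, at 0.76 (SE 0.18), in the authors' deposited table, while all 12 zld- libraries had a peak there. Toward Ubx, an unnamed region (chr3R:16797320-16799433) and VT42788.1 (chr3R:16801957-16804070) were lower in zld- in every window but 1.5-2 h, with called values of -0.46 to -0.54 (SE 0.18 each) and of -0.66 to -0.77 in the authors' deposited table. After subtraction of the trend the unnamed region was lower at 2-2.5 h only, and VT42788.1 in all 4 windows. The region of the named iab-2 enhancer (chr3R:16810440-16812553) had zld- values between -0.34 and -0.42 (SE 0.18 each) and no zld- call in the authors' deposited table. With the trend subtracted it was lower in zld- at 1.5-2 h only (-0.49). In cic6 at 2-2.5 h the iab-2 region was higher in the authors' deposited table (0.49), and had -0.094 with no call after subtraction of the trend. VT42802.1 (chr3R:16832103-16834216), over a further gene outside abd-A, was higher in zld- at 2-2.5 h, at 0.75 (SE 0.19), the largest gain at a Hox region in zld- in the authors' deposited table. The region at an annotated end of abd-A (chr3R:16829155-16831268) was lower in zld- at 1-1.5 h (-0.48, SE 0.19) and higher in cic6 at 2-2.5 h (0.29, SE 0.12) in the authors' deposited table. In cic6, 6 of the 9 abd-A regions were higher and 1 lower in the authors' deposited table (background 28.4% and 25.7%). With the trend subtracted 0 were higher and 2 lower (background 17.1% and 14.3%). The end region then had -0.035 in cic6 and -0.25 in zld- at 1-1.5 h (adjusted p 0.375), with no call.

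Abd-B (chr3R:16927212-16972236), which specifies the posterior abdomen and the genitalia, was the only Hox gene with no region lower in zld-, also with the trend subtracted. Of its 10 regions, the authors' deposited table called 0 lower and 5 higher in at least 1 zld- window (background 27.5% and 21.4%), with no called value above 0.52. VT42850.1 (chr3R:16922627-16924740), 3529 bp outside the gene, was higher in zld- at 1.5-2 h and 2.5-3 h (0.44 each, SE 0.15) and in both cic6 windows (0.60 and 0.43, SE 0.13 each) in the authors' deposited table. The median over its regions of the mean zld- fold change was 0.16, against -0.38 at abd-A and 0.01 over all regions, from the authors' deposited table. In cic6, 8 of the 10 Abd-B regions were higher and 0 lower in the authors' deposited table (background 28.4% and 25.7%). Of the 8, VT42863.1 (chr3R:16950270-16952383) had 0.61 and 0.53 (SE 0.13 each) there. The region nearest an end of Abd-B (VT42874.1, chr3R:16969919-16972032) was called higher in gd7 at 1.5-2 h (0.64, SE 0.19) and in cic6 at 2-2.5 h (0.56, SE 0.12) in the authors' deposited table. The enhancer region Abd-B_R20 (chr3R:16918810-16920923) was called in cic6 at 2-2.5 h only, at 0.61 (SE 0.16), in the authors' deposited table. With the trend subtracted 2 of the 8 were still higher in cic6 (background 17.1%), VT42863.1 at 2.5-3 h (0.42) and VT42874.1 at 2-2.5 h (0.35). In zld-, 4 of 10 were then higher and 0 lower (background 19.0% and 26.1%). VT42850.1 was then higher in zld- at 1-1.5 h (0.54) and 2.5-3 h (0.51), was not called at 1.5-2 h (0.31, adjusted p 0.224), and was not called in cic6.

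By cluster, 24 of 54 regions of the Antennapedia complex and 9 of 35 of the bithorax complex were lower in at least 1 zld- window, and 5 and 7 were higher, in the authors' deposited table. The background over all regions was 27.5% lower and 21.4% higher. By name, 20 of 51 named (39.2%) and 13 of 38 unnamed Hox regions (34.2%) were lower in zld-, beside 40.7% of the named and 25.8% of the unnamed regions of the genome, in the authors' deposited table. Inside the genes 22 of 61 regions were lower, and outside them 11 of 28. No test was made of these differences.

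In gd7 the Hox genes moved mainly in 1 window. At 1-1.5 h, 4 Hox regions were lower and 0 higher in the authors' deposited table (background 4.01% and 4.47%). At 1.5-2 h the authors' deposited table had 0 lower and 15 higher (background 7.47% and 7.86%), 12 of them in the Antennapedia complex. At 2-2.5 h it had 0 lower and 2 higher (background 3.45% and 2.09%) and at 2.5-3 h 0 lower and 1 higher (background 8.19% and 3.81%), all at pb, in the authors' deposited table. The median Hox fold change at 1.5-2 h was 0.23, against -0.01 over all regions, and the trend with mean count at these regions alone gave 0.19. With that trend subtracted, 7 Hox regions were higher and 0 lower at 1.5-2 h (7.87% higher, background 4.96% and 6.08% lower), 5 of them among the 15: a pair at pb and 1 each at Antp, Ubx and Abd-B. At 2.5-3 h the same step left 1 lower and 0 higher (background 5.8% and 3.9%).

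In cic6, Hox regions were higher above all at 2-2.5 h, and regions of like mean count elsewhere shifted by as much. At 2-2.5 h, 5 were lower and 44 higher (background 22.8% and 26.2%), and at 2.5-3 h 10 were lower and 11 higher (background 13.7% and 14.0%) in the authors' deposited table. The median Hox fold change was 0.23 and 0.01 from the authors' deposited table, and that of all regions was -0.02 in both windows. Regions of like mean count had a median of 0.23 at 2-2.5 h and 0.09 at 2.5-3 h in the running median over the 500 regions of next lower and next higher count. With that trend subtracted, 6 Hox regions were lower and 6 higher at 2-2.5 h (6.74% each, background 11.5% and 13.7%), and 12 lower and 5 higher at 2.5-3 h (13.5% and 5.62%, background 9.43% and 11.8%). After this step ABX was still lower in both windows (-0.58 and -0.86), and the region over zen2 (0.65 and 0.43) and that of pb_0.8 and pbZR (0.51 and 0.32) were still higher in both, as was VT37496.1 (0.57 and 0.27). Across both windows 3 regions were lower and 10 were higher throughout, beside 10.8% and 11.8% of all regions in the authors' deposited table.

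Whether an effect changed through the course was tested directly, as the difference between the log2 fold changes of the last and the first window over its SE (Wald test, adjusted over all regions). In zld-, 5 Hox regions became more negative and 7 more positive from 1-1.5 h to 2.5-3 h (background 4.76% and 5.44%). The 5 were VT37535.1 and VT37538.1 at Dfd, VT37567.1 (chr3R:6857393-6859506) between Scr and Antp, VT37583.1 at Antp and ABX. For ABX the difference was -0.76 (SE 0.22, adjusted p 0.00938), and for VT37567.1, which had -0.79 at 2.5-3 h and 0.38 at 1-1.5 h, it was -1.17 (SE 0.31, adjusted p 0.00478). The 7 were VT37471.1 at lab, 4 regions inside Antp and 2 at Abd-B, with the largest difference, 0.98 (SE 0.20, adjusted p 5.3e-05), at chr3R:6977375-6979488 in Antp. In gd7 0 Hox regions differed (background 0.793% more negative and 0.306% more positive), and in cic6 0 differed between 2-2.5 h and 2.5-3 h (background 0.115% and 0.0334%). With 1.5-2 h in place of the first window, 2 zld- regions differed, both more positive later (background 2.03% more negative and 0.736% more positive): the region over zen2 and chr3R:6924388-6926501 in Antp. Only this Antp region is among the 12, and the first window holds the shortest peak list.

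Peaks were also counted in each library. The zld- libraries had 91, 145 and 25 Hox peaks at 1-1.5 h, 200, 204 and 140 at 1.5-2 h, 188, 183 and 158 at 2-2.5 h, and 201, 178 and 176 at 2.5-3 h. The gd7 libraries had 126, 146 and 135, then 185, 140 and 201, then 193, 184 and 183, and last 183, 169 and 165. The cic6 libraries had 176, 195 and 194 at 2-2.5 h and 179, 183 and 163 at 2.5-3 h. In OreR the counts were 133, 150 and 157, then 191, 203 and 214, then 173, 197 and 188, and last 149, 155 and 194. Each mutant group overlapped OreR in its window.

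**Figure D4:**
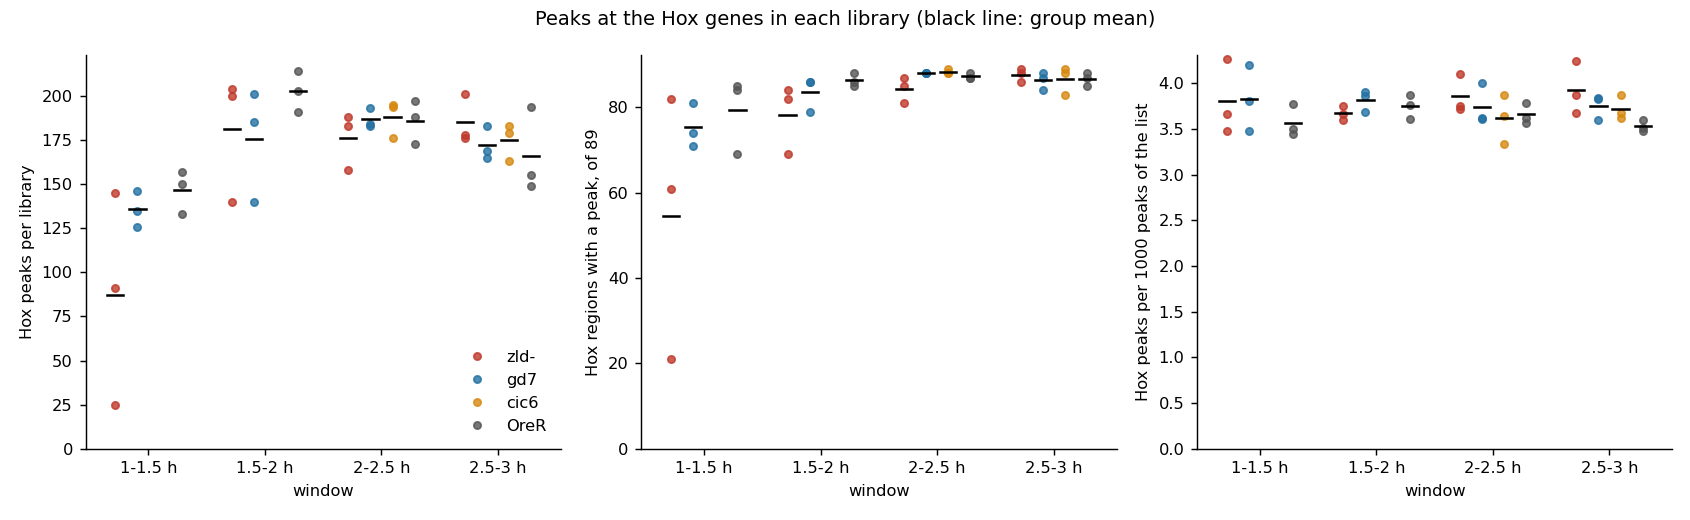
Peaks at the 8 Hox genes in each of the 42 libraries by window, for zld- (red), gd7 (blue), cic6 (orange) and OreR (grey), as a number, as the number of the 89 Hox regions with a peak, and per 1000 peaks of the library's list; black lines are group means. The zld- library with 25 Hox peaks at 1-1.5 h lies far below the others in the first 2 panels and within their range, 3.34 to 4.27, in the last.

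Averaged over windows, zld- libraries had 157.4 Hox peaks, against 175.3 in OreR (difference -17.9), gd7 libraries 167.5, against 175.3 (-7.83), and cic6 libraries 181.7, against 176 in OreR of the same windows (5.67). None of these passed a two-sided exact permutation test that exchanged genotypes within windows (exact p 0.173, 0.293 and 0.545; adjusted p 0.439, 0.439 and 0.545). The number of the 89 Hox regions with a peak differed by -8.67 in zld- (exact p 0.0520, adjusted p 0.156), by -1.58 in gd7 (exact p 0.368, adjusted p 0.551) and by 0.5 in cic6 (exact p 0.73, adjusted p 0.73). It was below the OreR mean of its window in 9 of 12 zld- libraries. Without replicate 3 of zld- the difference was -2.92 (exact permutation, adjusted p 0.551), without replicate 2 it was -12.7 (exact permutation, adjusted p 0.0183), and without the 1-1.5 h window it was -3.33 (exact permutation, adjusted p 0.215). For all Hox peaks in zld-, the difference was -1.58 without replicate 3 and -4 without that window. Within a single window 3 libraries against 3 cannot give an exact p below 0.1.

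Of the 89 regions, 21 had a peak in all 12 zld- libraries, 58 in all 12 gd7 libraries and 60 in all 12 OreR libraries. Since the regions were drawn from wild-type peaks, these counts too can favour OreR. Without the window of the short list, the 9 later zld- libraries all had a peak at 68 regions, against 77 for the 9 later OreR libraries, and zld- had fewer libraries with a peak than OreR at 19 regions and more at 4. In cic6, 83 regions had a peak in all 6 libraries, against 80 in the 6 OreR libraries of the same windows. Single regions stood out after their values were seen. At VT37556.1 in Scr (chr3R:6837604-6839717) 4 of 12 zld- libraries had a peak, against 11 of 12 OreR libraries, with fold changes between -0.24 and 0.05 and no call in the authors' deposited table, and with the trend subtracted it was lower at 1.5-2 h and 2.5-3 h. At chr3R:6996042-6998155 in Antp 2 of 12 gd7 libraries had a peak, against 10 of 12 in OreR, although its gd7 fold changes, -0.41, -0.06, -0.36 and -0.47 (SE 0.18 each) in the authors' deposited table, were not called. The region chr3R:6919461-6921574 in Antp had a peak in 2, 2, 3 and 3 zld- libraries through the windows, against 0, 1, 2 and 3 OreR libraries.

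In OreR itself, Hox peaks were fewest at 1-1.5 h (146.7 ± 12.3, SD, n = 3) and most at 1.5-2 h (202.7 ± 11.5), followed by 186 ± 12.1 and 166 ± 24.4. The window means differed beyond the spread between libraries (SD of window means 24.3, exact permutation p 0.0144), but per 1000 peaks of the list they did not pass (exact permutation p 0.221), and without OreR replicate 1 or 2 the exact p was 0.0857 or 0.21. Libraries held 400 embryos at 1-1.5 h, 100 at 1.5-2 h and 40 later, so age and embryo number changed together up to 2-2.5 h and cannot be told apart. By gene, the exact permutation p adjusted over the 8 genes was 0.0364 for Scr, 0.0478 for lab, Dfd and Abd-B, 0.0546 for Antp, 0.12 for Ubx, 0.171 for pb and 0.757 for abd-A. These tests by gene used peak numbers not scaled to the list, and OreR lists averaged 41069 peaks at 1-1.5 h and 54061 at 1.5-2 h. Scr had 14 ± 1 peaks at 1-1.5 h and 21 ± 2 at 1.5-2 h, and Dfd 7 ± 2 and 13 ± 1 (SD, n = 3 each). At abd-A the mean lay between 13.3 and 14.7 in all 4 windows.

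**Figure D5:**
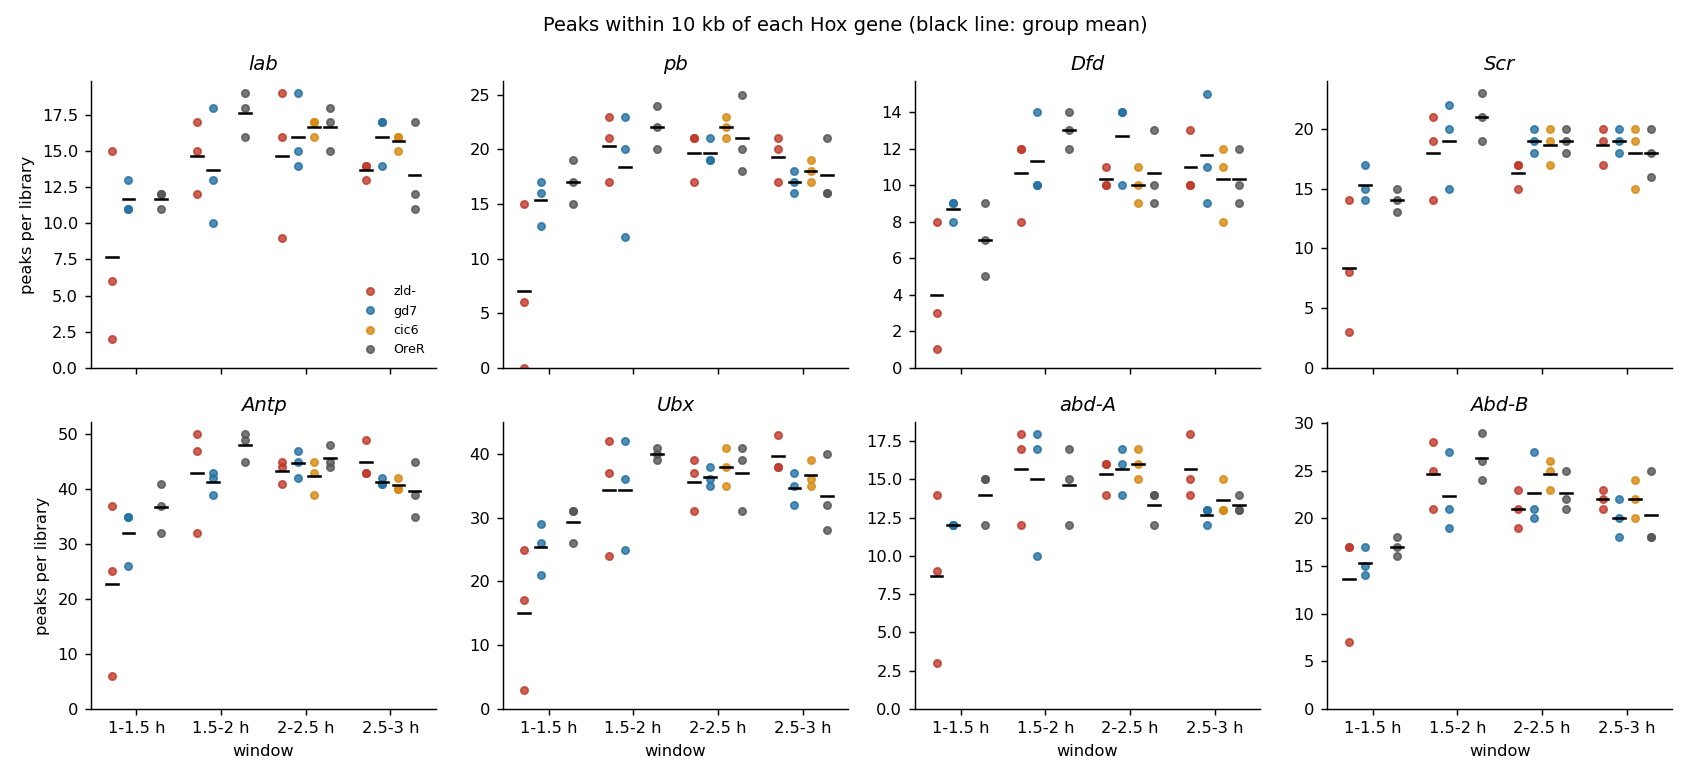
Peaks with a summit in each Hox gene or within 10 kb of it, per library and window, for zld- (red), gd7 (blue), cic6 (orange) and OreR (grey), with group means as black lines. In OreR the count at abd-A hardly moves (means 13.3 to 14.7), while at Scr it is 14 at 1-1.5 h and 21 at 1.5-2 h.

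Peaks were also counted per length of gene and flanks. At 1.5-2 h OreR had 4.75 ± 0.41 peaks per 10 kb at lab, 4.48 ± 0.43 at Scr, 4.25 ± 0.33 at Dfd, 4.09 ± 0.10 at Ubx, 4.05 ± 0.37 at pb, 4.05 ± 0.39 at Abd-B, 3.90 ± 0.22 at Antp and 3.42 ± 0.59 at abd-A (SD, n = 3 each). Neighbours in this order differed by less than the larger of their SDs, while the libraries of lab and abd-A, at its ends, did not overlap (4.31 to 5.11 against 2.80 to 3.97); the difference was not tested. At 1-1.5 h abd-A was the densest, at 3.27 ± 0.40, and Dfd the least dense, at 2.29 ± 0.65. Over 24 exact permutation tests of a gene in a mutant, 0 had an adjusted p under 0.05. The lowest exact permutation p was that of Scr in zld-, 15.3 against 18 peaks per library (p 0.031, adjusted p 0.532), with 8 of 12 zld- libraries below the OreR mean of their window.

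Peaks also lay outside the tested regions, which were drawn from wild-type peaks per the file names. Between 12% and 47.5% of a library's Hox peaks had their summit in no tested region. In 42 of 42 libraries these had a lower median fold enrichment (the authors' value) than the Hox peaks inside tested regions. At 2-2.5 h Hox peaks of cic6 were narrower, with a median width of 323 to 370 bp in the 3 libraries, against 412 to 490 bp in OreR, and so were the peaks of their whole lists, at 352.3 ± 16.3 bp against 464.3 ± 48.7 bp (SD, n = 3 each). At 2.5-3 h the Hox peaks had a median width of 379 to 451 bp in cic6 and 414.5 to 598 bp in OreR, and the groups overlapped.

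Neighbours, cofactors and regulators of the Hox genes were counted in the same way, over regions within 10 kb of each gene. Around ftz, bcd, zen, zen2 and Ama, the other genes of the Antennapedia complex, 8 of 11 regions were lower and 0 higher in zld-, 0 and 1 in gd7, and 0 and 9 in cic6, in the authors' deposited table. Of these 11, 4 are also among the 89 Hox regions, and without them 6 of 7 were lower in zld-, 0 were called in gd7 and 6 were higher in cic6. The cofactors exd and hth, which bind DNA together with Hox proteins, had 15 of 29 regions lower and 1 higher in zld-, 1 and 3 in gd7, and 5 and 9 in cic6, in the authors' deposited table. Near 12 Polycomb group genes, 14 of 49 regions were lower and 8 higher in zld-, 0 and 9 in gd7, and 3 and 24 in cic6, in the authors' deposited table. At 6 trithorax group genes the authors' deposited table had 8 of 26 lower and 1 higher in zld-, 1 and 2 in gd7, and 3 and 10 in cic6. The 32 regions that lie between Hox genes but more than 10 kb from them had 14 lower and 7 higher in zld-, 1 and 4 in gd7, and 3 and 24 in cic6, in the authors' deposited table. All of these are counts over at least 1 window. The background was 27.5% lower and 21.4% higher in zld-, 13.2% and 12.6% in gd7, and 25.7% and 28.4% in cic6. The trend with mean count was not subtracted for these lists. At the 89 Hox regions that step took the number higher in cic6 from 45 to 8.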

How the data were processed

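The data are ATAC-seq peak lists and comparison tables for 42 libraries in 14 groups of 3, grouped by title and genotype label. Bowtie2 2.3.5.1, Picard 2.23.8, MACS2 2.2.7.1, DESeq2 and the build dm6 are named in the submitters' processing notes, without roles, and a shift for the transposase is not given in the sources used here. Each deposited peak list gives a fold enrichment (a ratio) and the −log10 of a p-value and a q-value. Each deposited table gives, per the file headers, a mean normalized count (a signal), a log2 fold change with its SE, a p-value and its adjusted form; the mean is 1 value for all windows of a table. Library counts were not used here, so the planned edgeR and DESeq2 fits were not run, and a region was called by the authors' adjusted p under 0.05. Of the gd7 regions, 7 have no p-value. Depth per library is unknown, so no counting interval is given. The labels do not say that replicates are separate collections, so p-values measure only the spread between these libraries.

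Gene positions came from the RefSeq table of Release 6, in which all 8 symbols matched. It gives no strand and no sequence, so distances are to the nearest annotated end and no motif was searched. Peaks were assigned to a gene by summit and to a region by an overlap of at least 1 bp. Peak numbers were compared by exact permutation, with Benjamini-Hochberg adjustment, in Python 3.11.15 with pandas 2.3.3 and scipy 1.17.1; the code was first tested on simulated data. No 2 lists were identical. The members and gene lists were chosen with earlier results of these data known. Regions named in the text were those nearest an end of each gene, those with the largest mean change among regions called in at least 2 windows for each gene and mutant, and those with a Hox enhancer name; others were chosen after their values were seen. Alternatives tried were distances of 2 kb, 20 kb and inside the gene, stricter calls, centring, removal of the trend with mean count, stricter or equal-length peak lists, and leaving out replicates.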

Additional observations from a re-analysis of the deposited data

Results flagged for a closer look

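The effect of zld- differed between the last and the first window at 3 of the regions named by the rule above, by a Wald test adjusted over all regions. Among all 89 Hox regions, 5 became more negative and 7 more positive (background 4.76% and 5.44%). At VT37535.1 near the end of Dfd the log2 fold change was -0.37 at 2.5-3 h and 0.03 at 1-1.5 h, a difference of -0.40 (SE 0.14, adjusted p 0.0334). At VT37583.1 near Antp it was -0.999 and -0.34, a difference of -0.66 (SE 0.21, adjusted p 0.0255). At the ABX enhancer of Ubx it was -0.89 and -0.13, a difference of -0.76 (SE 0.22, adjusted p 0.00938). With 1.5-2 h as the earlier window 0 of these 3 differed, and the zld- group of 1-1.5 h holds the list of 6831 peaks; the part of that library in the differences was not tested.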

How the results depend on the processing

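Counts of called Hox regions depended on the threshold. With an absolute log2 fold change of at least 0.5, calls in at least 1 window were 20 lower and 3 higher in zld- (background over all regions 16.5% and 6.48%), 2 lower in gd7 (6.95%), and 3 lower and 26 higher in cic6 (7.56% and 12%). At a size of at least 1, 2 regions stayed lower in zld- (background 4.85%) and 0 were left for zld- higher, gd7 and cic6 (background 0.645% to 1.28%). At an adjusted p under 0.01, 7 were higher in zld- (background 13.5%), 2 lower in gd7 (7.8%) and 7 higher in gd7 (5.58%). By distance, 7 were higher in zld- within 2 kb, 7 inside genes and 19 within 20 kb, and 27 were higher in cic6 inside genes, where the background is as in the report, 21.4% and 28.4%, since the call rule is the same. The number of regions changes with the distance, 61 inside genes against 89 within 10 kb, so these counts move with it. With the trend with mean count removed, 8 were higher in gd7 and 8 in cic6 (background 9.26% and 17.1%). Of 72 named values, centring changed the call of 2 and the sign of 0, while trend removal ended the call of 29 and turned 4, all in cic6 at 2-2.5 h: VT37540.1 at Dfd (-0.24), Scr_6.7BB (-0.11), the iab-2 region (-0.094) and the region at the end of abd-A (-0.035). With 1.5-2 h as the first window, 2 regions differed between windows in zld-, both more positive later (background 2.03% more negative and 0.736% more positive). The cause was not tested in any of these.

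Differences in Hox peaks changed sign with equal-length lists in gd7 (2.58) and per 1000 list peaks in zld- (0.188) and gd7 (0.159). Differences in regions with a peak in cic6 changed sign at a −log10 q of at least 5 (-0.167) and with equal-length lists (-0.333). Leaving out 1 replicate gave Hox peak differences of -28.0 to -1.58 in zld-, -14.8 to -1.38 in gd7 and -1.83 to 13.2 in cic6. In gd7 and cic6 the lowest value came without OreR replicate 1. For regions with a peak it gave -12.7 to -2.92 in zld-, -2.79 to -0.917 in gd7 and 0 to 1.5 in cic6. The SD of OreR window means was 0.0973 per 1000 list peaks (exact permutation p 0.221) and 23.7 to 26.4 with 1 replicate left out.

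With replicate number as a replicate block (exact sign flips), the differences stayed at -17.9, -7.83 and 5.67 Hox peaks and at -8.67, -1.58 and 0.5 regions, with no change of call (smallest adjusted p 0.0527). Same-number correlations of deviations were weak, with 1 of 30 above 0.1. However, 15 of 30 mutant libraries correlated best with the OreR library of their own number. Whether the numbers pair the libraries was not settled. Leaving out the 1-1.5 h window of zld- was chosen after seeing the data. Fits that need library counts were not run, and depth is unknown.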

Other observations

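Enhancers named after Ubx and Abd-B also lay farther than 10 kb from these genes, and they were picked after their names were seen. Ubx_BXD-C (chr3R:16749526-16751639) was lower in zld- at 1-1.5 h and at 2.5-3 h, at -0.55 (SE 0.16) and -0.39 (SE 0.15), higher in gd7 at 1.5-2 h, at 0.52 (SE 0.17), and higher in cic6 at 2-2.5 h, at 0.41 (SE 0.12), in the authors' deposited table. The Ubx enhancer regions S1 (chr3R:16755052-16757165) and S2 (chr3R:16764130-16766243) had no call in zld- or gd7 and were higher in cic6 at 2-2.5 h, at 0.21 (SE 0.09) and 0.68 (SE 0.18), in the authors' deposited table. The region Abd-B_R15 (chr3R:16877611-16879724) was higher in zld- at 1-1.5 h, at 0.49 (SE 0.19), and in cic6 at 2-2.5 h, at 0.60 (SE 0.14), in the authors' deposited table. Of the distant Hox-named enhancers, Ubx_BXD-C alone was lower in any zld- window. The trend with mean count was not subtracted from these values. In cic6 at 2-2.5 h its median at the Hox regions was 0.23.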
